A study of Rattus norvegicus with 9 samples.

Results

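The sodium pump of the rat kidney, Na,K-ATPase, was followed through the transcripts of its beta subunits and of its FXYD partners. The members were the genes Atp1b1, Atp1b2, Atp1b3, Fxyd1, Fxyd2, Fxyd4 and Fxyd5, taken as every gene probe of the array that carries one of these names. This gave 8 probes of 30367 and 7 genes of 26115 gene names, with 2 probes for Fxyd2 and 1 for each other gene. All 8 probes passed the filter on dim probes described below, as did 15836 probes in all.

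The kidneys came from Fisher F344 rats and were removed after 20 min. of warm ischaemia, as a model of donation after circulatory death. Of the 9 arrays, 5 held non-perfused kidneys (NP), which the study describes as obtained after the ischaemia and kept in RNAlater. The other 4 held kidneys perfused for 4 hrs at 4°C with Belzer solution (BS), a cold preservation fluid, to which mesenchymal stromal cells (MSC) had been added. The MSC came from bone marrow of Sprague Dawley rats that carry a transgene for Enhanced Green Fluorescence Protein. The titles of the NP samples name a perfusion with BS, whereas their treatment label and the study's methods call them not perfused, and the latter was followed. No array of kidneys perfused with BS alone was analysed here, so perfusion, cold storage and MSC cannot be told apart. The kidneys were whole tissue, in which fewer cells of a type and less RNA per cell cannot be told apart either.

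Na,K-ATPase moves sodium out of the cell and potassium in, at the cost of ATP, and in the kidney it sits in the basolateral membrane of tubule cells, where it drives the recovery of sodium. Its alpha subunit carries the ions and splits ATP, and its beta subunit is a glycoprotein needed for folding and for delivery to the membrane. FXYD proteins are small single-span membrane proteins, named after a shared motif, that bind the pump and set its affinity for ions. Ischaemia is known to disturb the polarity of the pump in tubule cells.

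The probe sequences show which stretch of a transcript each value reads, and 3 are given because they bear on the FXYD members. The first Fxyd2 probe and the Fxyd1 probe were searched for a shared run of letters, and no alignment of the FXYD genes was made. Capitals mark the longest run of letters that both probes hold, 10 bases that begin at base 50 of the Fxyd2 probe and at base 3 of the Fxyd1 probe. The other Fxyd2 probe lies at the start of its transcript, and is shown from its first ATG, in capitals, to its end.
Fxyd2 A_42_P506685: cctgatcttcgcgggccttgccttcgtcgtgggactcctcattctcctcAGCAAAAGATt
Fxyd1 A_42_P572123: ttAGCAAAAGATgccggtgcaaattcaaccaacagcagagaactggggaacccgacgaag
Fxyd2 A_64_P126756, last 24 bases: ATGacagagctgtcagctaaccat

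On the rn4 build, whose coordinates the array files give, the Fxyd2 probe A_42_P506685 covered chr8:48384378-48385363 on the plus strand. Its 60 bases thus spread over 986 bases of the genome, so it reads across at least 1 exon junction. The Fxyd2 probe A_64_P126756 covered chr8:48381790-48381849 on the plus strand and began at base 2 of the transcript that the files pair with it. Fxyd2 is known to have variants with different first exons, and a probe at the transcript's start can read fewer of them than a probe further along. The Fxyd1 probe covered chr1:86095744-86096982 on the minus strand, again across a junction, with a span of 1239 bases. Fxyd5 was read at chr1:86076360-86076419 (minus strand), Fxyd4 at chr4:154233828-154233887 (minus), Atp1b1 at chr13:80214142-80214201 (minus), Atp1b2 at chr10:56418392-56418451 (minus) and Atp1b3 at chr8:101406203-101406262 (minus). Fxyd5, Fxyd7 and Fxyd1 are direct neighbours on chromosome 1 in the RefSeq annotation of the GRCr8 assembly, and Fxyd6 and Fxyd2 are direct neighbours on chromosome 8. The gene models on rn4 were not used here, so exon and UTR limits around the probes are not given.

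Levels are log2 intensities after normalization between arrays, and they compare arrays for 1 probe, never 1 probe with another. Each member probe was well above background on 9 of 9 arrays, with 0 saturated and 0 flagged spots. Over the 9 arrays 65.6 to 74.3% of gene spots were well above background and the median raw intensity was 577 to 917. The arrays lay on 2 slides, with NP replicates 1, 2 and 3 and MSC replicates 1 and 2 on slide 1 and the other arrays on slide 2. Differences are MSC minus NP, so 1 unit is a doubling. They were tested with limma, with the false discovery rate (FDR) taken over all probes that passed the filter, and a probe was called at FDR below 0.05 with a fold change above 1.5. The number of arrays limits the precision, and p-values measure the spread between these kidneys. Labelled renal tissue carried its defining transcripts, since Umod, Slc22a6 and Aqp2, which mark the thick ascending limb, the proximal tubule and the principal cell, were well above background on 9 of 9 arrays.

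No pump transcript differed between MSC-perfused and NP kidneys beyond the spread between kidneys. With limma 0 of 8 member probes were called, and 0 of 8 had an unadjusted p below 0.05 in either direction. Over all 15836 probes 0% were called by the FDR rule, and 6.49% were higher and 5.12% lower at an unadjusted p below 0.05. No member separated the groups: 0 probes had all MSC arrays above all NP arrays, against 3.12% of all probes, and 0 had all MSC arrays below, against 2.13%. The log2 difference was above 0 for 2 member probes and below 0 for 6, with a median of -0.04, beside -0.0048 over all probes. All member probes but that of Fxyd1 had a 95% interval inside a 1.5-fold change in either direction.

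Among the beta subunits, Atp1b1, the main renal form, had the largest difference. Its normalized log2 intensity in NP replicates 1 to 5 was 17.70, 18.29, 17.95, 17.93 and 18.01, and in MSC replicates 1 to 4 it was 17.98, 18.27, 18.01 and 18.47. The highest array was MSC replicate 4 and the lowest NP replicate 1, but NP replicate 2 lay above 3 of the 4 MSC arrays, so the groups overlapped. The mean was 17.98 ± 0.21 (SD, n = 5) in NP and 18.18 ± 0.23 (SD, n = 4) in MSC, a log2 difference of 0.21 with an SE of 0.138 (exact permutation p = 0.175, limma FDR = 0.575). This is 15.4% higher in MSC, with a 95% interval from 0.932-fold to 1.43-fold. The difference was 0.15 within slide 1 and 0.27 within slide 2, 0.11 without MSC replicate 4 and 0.14 without NP replicate 1.

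Atp1b2, the beta subunit best known from glia and muscle, had the difference nearest to 0. NP replicates 1 to 5 gave 11.24, 11.50, 10.85, 11.20 and 11.35, and MSC replicates 1 to 4 gave 11.30, 10.93, 11.45 and 11.18. Both the highest and the lowest array were NP kidneys, so the MSC values lay wholly inside the NP range. MSC differed from NP by -0.02 on the log2 scale, with an SE of 0.143 (exact permutation p = 0.889, limma FDR = 0.973), and the interval ran from 0.792-fold to 1.23-fold.

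Atp1b3, a widely expressed beta subunit, was read by 10 spots per array, against 2 for each other member probe. NP replicates gave 14.32, 14.00, 13.95, 13.99 and 14.08, and MSC replicates 14.16, 13.95, 13.99 and 13.87. NP replicate 1, the lowest array for Atp1b1, was the highest for Atp1b3, and MSC replicate 4 was highest for Atp1b1 and lowest for Atp1b3. On the log2 scale MSC minus NP was -0.07, with an SE of 0.0975 (exact permutation p = 0.508, limma FDR = 0.806; interval 0.819-fold to 1.11-fold). It was -0.0077 without NP replicate 1, -0.03 without MSC replicate 4 and -0.13 without MSC replicate 1.

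**Figure D1:**
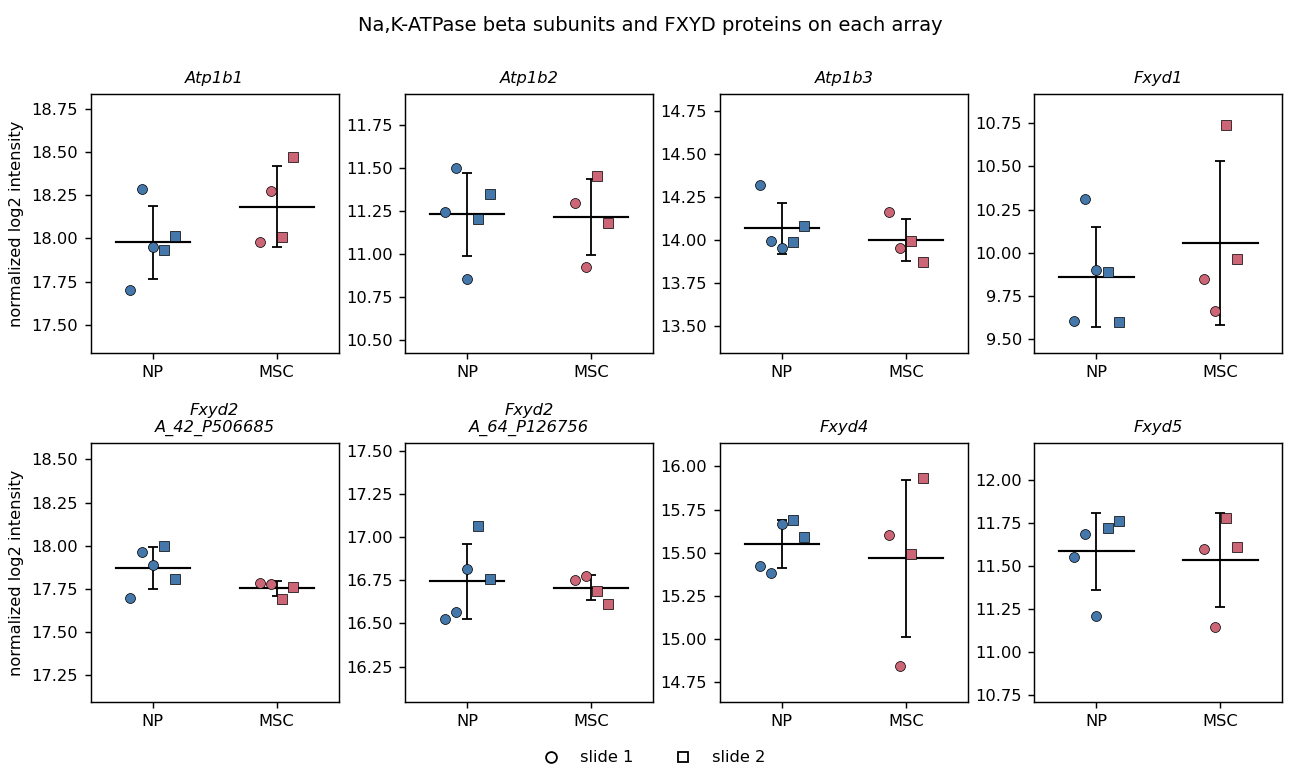
Normalized log2 intensity (vertical axis, the same height of 1.5 units in every panel) of each member probe in the 5 NP and 4 MSC kidneys, with circles for slide 1 and squares for slide 2. Horizontal lines are group means and error bars are SD, and the groups overlap in every panel, with MSC values of the first Fxyd2 probe packed between 17.69 and 17.79.

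Of the FXYD members, Fxyd2, the gamma subunit of the renal pump, was the only one with more than 1 probe. Probe A_42_P506685 gave 17.70, 17.96, 17.89, 18.00 and 17.81 in NP replicates 1 to 5 and 17.79, 17.78, 17.69 and 17.76 in MSC replicates 1 to 4. Of the MSC arrays 3 lay in the lower part of the NP range and 1, replicate 3, lay just below its lowest array, NP replicate 1. The mean was 17.87 ± 0.12 (SD, n = 5) in NP and 17.75 ± 0.04 (SD, n = 4) in MSC, a log2 difference of -0.12 with an SE of 0.0805 (exact permutation p = 0.119, limma FDR = 0.580). The value is 7.90% below NP, with an interval from 0.813-fold to 1.04-fold, and it was -0.07 within slide 1 and -0.18 within slide 2.

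Fxyd2 probe A_64_P126756, at the transcript's start, gave 16.52, 16.57, 16.82, 17.07 and 16.75 in NP and 16.75, 16.77, 16.69 and 16.61 in MSC. NP replicate 2 was the second highest array for the first probe and the second lowest for this one. MSC minus NP was -0.04 on the log2 scale, with an SE of 0.113 (exact permutation p = 0.778, limma FDR = 0.918), being 0.13 within slide 1 and -0.26 within slide 2. The SD was smaller in MSC than in NP for both probes (0.07 against 0.22 here), which was not tested.

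Fxyd4, the channel-inducing factor of the collecting duct, was set by its lowest array. NP replicates gave 15.42, 15.38, 15.67, 15.69 and 15.59, and MSC replicates 15.60, 14.84, 15.49 and 15.93. MSC replicate 2 was the lowest of the 9 arrays and MSC replicate 4 the highest, so the MSC group enclosed all NP values. The log2 difference was -0.09 with an SE of 0.188 (exact permutation p = 0.754, limma FDR = 0.890; interval 0.705-fold to 1.26-fold), and without MSC replicate 2 it was 0.12.

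Fxyd1, phospholemman, is a partner of the pump in heart and smooth muscle and was read at a raw intensity of 644 to 2262. NP replicates gave 9.61, 10.31, 9.90, 9.89 and 9.60, and MSC replicates 9.85, 9.66, 10.74 and 9.96. MSC replicate 3 and NP replicate 2 stood highest, 1 in each group. The log2 difference was 0.19 with an SE of 0.222 (exact permutation p = 0.468, limma FDR = 0.758; interval 0.812-fold to 1.61-fold). It was -0.18 within slide 1 and 0.61 within slide 2, and -0.03 without MSC replicate 3. That array also had the highest summed level of the fat markers (14.94, against 12.32 to 12.84 in NP), whose part in the value was not tested.

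Fxyd5, dysadherin, which also bears on cell adhesion, gave 11.55, 11.69, 11.21, 11.72 and 11.76 in NP and 11.60, 11.15, 11.78 and 11.61 in MSC. The lowest array of each group, NP replicate 3 and MSC replicate 2, was also the lowest of its group for Atp1b2. The log2 difference was -0.05 with an SE of 0.150 (exact permutation p = 0.667, limma FDR = 0.919; interval 0.765-fold to 1.22-fold), and without MSC replicate 2 it was 0.08.

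**Figure D2:**
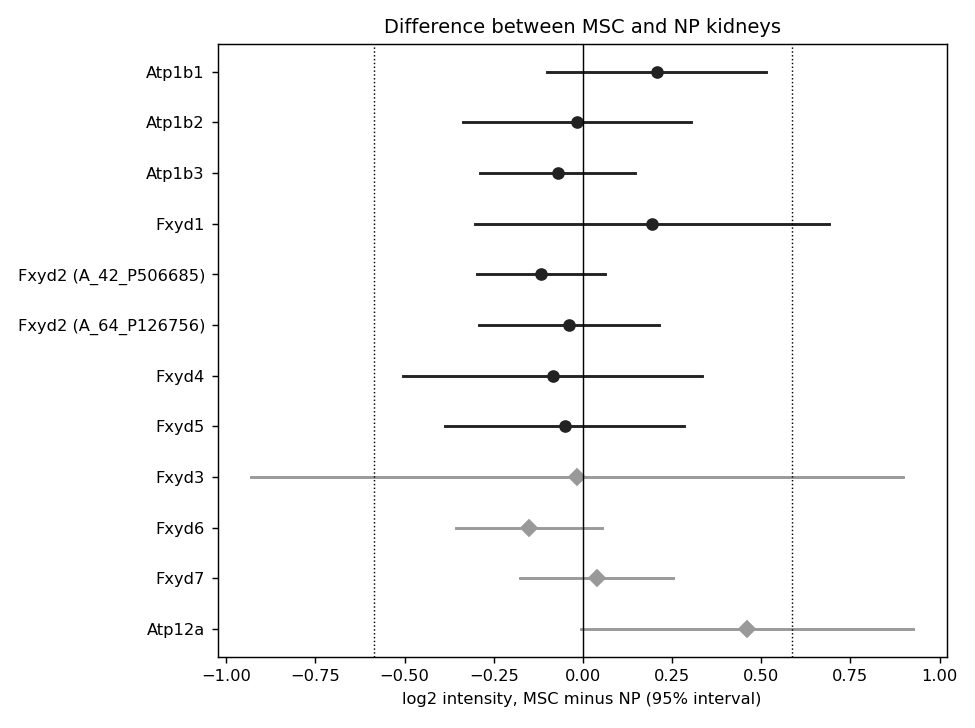
Log2 intensity in MSC minus NP (horizontal axis) with 95% intervals from limma for the 8 member probes (black circles) and for Fxyd3, Fxyd6, Fxyd7 and Atp12a (grey diamonds). Dotted lines mark a 1.5-fold change, and each member's interval crosses 0, from -0.51 at the lowest (Fxyd4) to 0.69 at the highest (Fxyd1).

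To ask whether members shifted against each other, each was set against Atp1b1 on the same array, since a scaling factor of the array cancels in that difference. Only the change of this difference between groups can be read, and 6 were computed, with unadjusted exact two-sided permutation tests over 126 splits, whose smallest p is 0.00794. Relative to Atp1b1 the brightest Fxyd2 probe was -0.11 ± 0.16 (SD, n = 5) in NP and -0.43 ± 0.23 (SD, n = 4) in MSC. The difference was -0.33 (exact p = 0.0556), and 2 of the 4 MSC arrays lay below all NP arrays. It was -0.22 within slide 1 and -0.45 within slide 2, and with the scanner's processed signal it was -0.35 (exact p = 0.0476), while with 1 array left out the exact p was 0.0536 to 0.143. Of its 2 parts, Atp1b1 differed by 0.21 between groups and this Fxyd2 probe by -0.12, so most of the shift came from Atp1b1. The Fxyd2 probe A_64_P126756, which differed by -0.04, was not set against Atp1b1. The other 5 differences over Atp1b1 were -0.22 for Atp1b2, -0.28 for Atp1b3, -0.01 for Fxyd1, -0.29 for Fxyd4 and -0.26 for Fxyd5, with exact p from 0.278 to 0.984. Without MSC replicate 2 the difference was -0.05 for Fxyd4, -0.10 for Fxyd5 and -0.10 for Atp1b2. Without MSC replicate 3 it was -0.40 for Fxyd5 and -0.36 for Atp1b2, and without MSC replicate 4 it was -0.14 for Atp1b3 and -0.12 for Atp1b2. Without NP replicate 1 it was -0.15 for Atp1b3. As these share the Atp1b1 values, their common direction is not 6 separate observations.

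**Figure D3:**
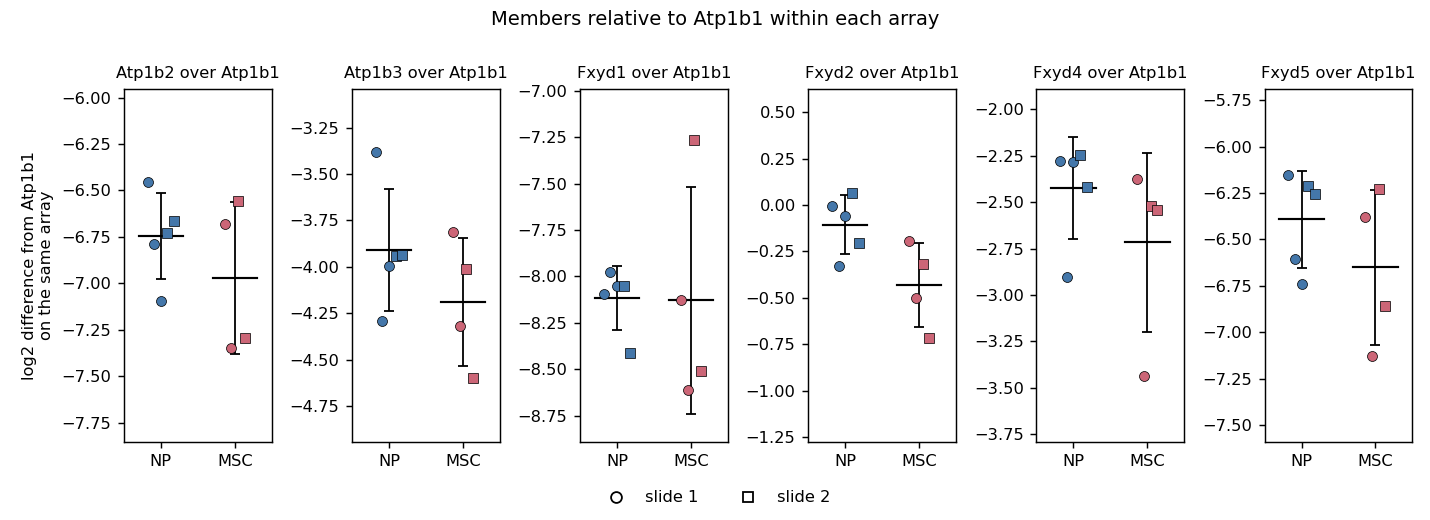
Log2 difference between each member's brightest probe and the Atp1b1 probe on the same array (vertical axis) in NP and MSC kidneys, with group means and SD, circles for slide 1 and squares for slide 2. Only shifts between groups are meaningful, and that of Fxyd2 was -0.33, with 2 MSC arrays below all NP arrays.

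The levels of the members across kidneys were then set beside summed levels of marker transcripts of nephron segments and other cells, and beside the median raw intensity of each array. A summed level is the log2 of the added intensities of a list, so its brightest markers weigh most. This gave 91 relations over 9 arrays, of which 2 had a Benjamini-Hochberg adjusted p below 0.05. Atp1b1 followed the summed level of the thick ascending limb list (Slc12a1, Umod, Cldn16, Cldn19, Ptger3 and Ppp1r1a), a segment known for abundant pump. Umod and Ppp1r1a, with NP means of 18.25 and 17.30, supply most of that sum. The NP means of the others were 15.46 for Slc12a1, 14.23 for Cldn19, 10.97 for Cldn16 and 10.27 for Ptger3. Pearson's r was 0.965 (exact permutation p = 6.06e-04, adjusted p = 0.0276), and Spearman's rho was 0.70 (exact permutation p = 0.0433, adjusted p = 0.437). Without the 2 arrays farthest from the median r was 0.933, and with each group centred on its own mean it was 0.960. It was 0.795 with quantile normalization, the lowest under 5 other scalings, a check chosen after the data were seen. With the proximal tubule list Atp1b1 had r = 0.818 (exact permutation p = 0.00651, adjusted p = 0.198; rho = 0.583, exact permutation p = 0.108), which was 0.447 without the 2 farthest arrays. By rank Atp1b1 was closest to the stromal cell list, with rho = 0.833 (exact permutation p = 0.00827, adjusted p = 0.252). There r was 0.691 (exact permutation p = 0.0438, adjusted p = 0.317), and 0.340 without the 2 farthest arrays.

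Atp1b3 ran against the proximal tubule list (Lrp2, Slc5a2, Slc34a1, Slc22a6, Slc5a12 and Slc7a13). Pearson's r was -0.940 (exact permutation p = 1.30e-04, adjusted p = 0.0118), and Spearman's rho was -0.833 (exact permutation p = 0.00827, adjusted p = 0.252). Without the 2 arrays farthest from the median r was -0.759. This relation moved with the scaling, to -0.496 with 75th percentile scaling of the mean signal, -0.475 with quantile normalization and -0.404 with the processed signal. The slides hold 5 and 4 arrays, too few for a correlation within each, but with each slide centred on its own mean, a check added after the data were seen, r was 0.964 for Atp1b1 with the thick ascending limb list and -0.931 for Atp1b3 with the proximal tubule list.

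Array brightness lay beside the Atp1b1 values: the 3 arrays of lowest median raw intensity, MSC replicate 4 (577), MSC replicate 2 (583) and NP replicate 2 (594), had the 3 highest Atp1b1 levels. Over the 9 arrays r between Atp1b1 and the log2 median raw intensity was -0.577 (exact permutation p = 0.108, adjusted p = 0.586) and Spearman's rho was -0.50 (exact permutation p = 0.178), and r was -0.628 without the 2 farthest arrays. Its part in the Atp1b1 difference was not tested.

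**Figure D4:**
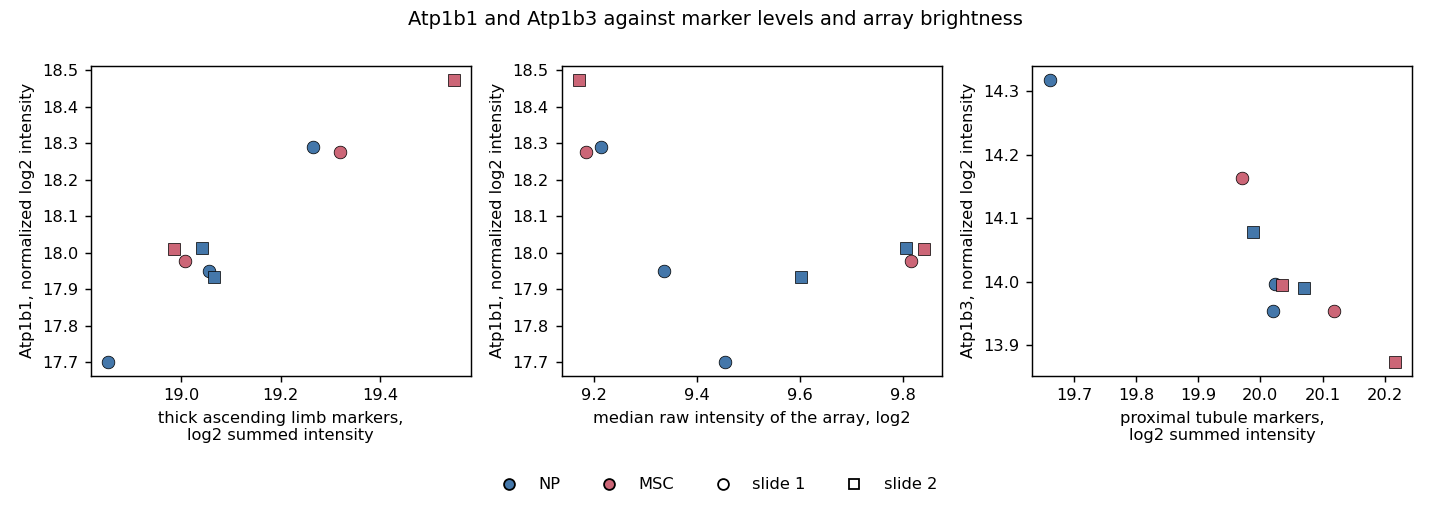
Each point is 1 kidney (blue NP, red MSC, circles slide 1, squares slide 2). The left panel sets Atp1b1 against the log2 summed intensity of the thick ascending limb markers (r = 0.965), the middle panel against the log2 median raw intensity of the array (r = -0.577), and the right panel sets Atp1b3 against the proximal tubule markers (r = -0.940), where NP replicate 1 stands apart at the upper left.

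For the FXYD members no list passed the adjustment. Fxyd1 had r = 0.757 with the smooth muscle list (exact permutation p = 0.0276, adjusted p = 0.279; Spearman's rho = 0.783, exact permutation p = 0.0172), and r was 0.894 without the 2 farthest arrays. Fxyd5 had r = 0.734 with the endothelium list (exact permutation p = 0.0207, adjusted p = 0.267; rho = 0.667, exact permutation p = 0.0589) and 0.697 without the 2 farthest. Fxyd2 had r = -0.774 with the intercalated cell list (exact permutation p = 0.0135, adjusted p = 0.245; rho = -0.80, exact permutation p = 0.0138) and -0.692 without the 2 farthest. With each group centred on its own mean that r was -0.636. Fxyd2 ran about as far against other lists, so the relation was not particular to intercalated cells. With nerve, where 1 of 5 genes passed the filter, r was -0.769 (exact permutation p = 0.0117, adjusted p = 0.245). It was -0.744 with the distal convoluted and connecting tubule list (exact permutation p = 0.0234) and -0.699 with leukocytes (exact permutation p = 0.0375). Fxyd4, a collecting duct transcript, had r = 0.542 with the principal cell list (exact permutation p = 0.144, adjusted p = 0.626; rho = 0.433, exact permutation p = 0.250) and 0.220 without the 2 farthest.

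Among the 21 pairs of members 0 passed the adjustment. The closest pair was Atp1b2 and Fxyd5, with r = 0.893 (exact permutation p = 0.00398, adjusted p = 0.0836; rho = 0.717, exact permutation p = 0.0369), which was 0.499 without the 2 farthest arrays. Atp1b1 and Atp1b3 had r = -0.762 (exact permutation p = 0.0159, adjusted p = 0.167; rho = -0.417, exact permutation p = 0.270), and -0.313 without the 2 farthest.

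As a description, the genes most like each member over the 9 arrays were picked by Pearson's r among 13929 genes. For Atp1b1 they were Mob4 (0.980), TC645988 (0.975) and Vsig10l (0.974), and for Atp1b3 Cog3 (0.981), Crlf2 (0.942) and Fdx1 (0.932). Atp1b2 was closest to Ly6e (0.939), Tns3 (0.929) and FQ213594 (0.924), and Fxyd5 to Ramp2 (0.980), Plvap (0.956) and Ly6e (0.955), so Ly6e stood near both. Ramp2, a partner of the adrenomedullin receptor, and Plvap, of the endothelial diaphragm, are endothelial transcripts. Fxyd1 was closest to Lgals1 (0.955), Kcnk3 (0.954) and Aox1 (0.927). Fxyd2 was closest to Ostm1 (0.951), Stam2 (0.950) and the probe A_44_P557994 (0.938), and Fxyd4 to Evpl (0.937), Pold1 (0.915) and Capg (0.907).

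Of the other FXYD genes and the related ion pumps, Fxyd3, Fxyd6, Fxyd7 and Atp12a passed the filter, and limma called none of them, as in the share of 0% over all probes. Fxyd6, the neighbour of Fxyd2, differed by -0.15 (exact permutation p = 0.119, limma FDR = 0.541). Atp12a, a potassium pump of the distal nephron and colon, differed by 0.46 (exact permutation p = 0.0952, limma FDR = 0.436). Fxyd3 differed by -0.02 with an SE of 0.410 (limma FDR = 0.992), but by -1.05 within slide 1 and 1.11 within slide 2, and 2 MSC arrays lay above and 2 below all NP arrays. Fxyd7 differed by 0.04 with an SE of 0.096 (limma FDR = 0.901). Atp1b4, Atp4a and Atp4b did not pass the filter.

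The genes that anchor or fold the pump, or bind it, were split evenly. Of 14 on the array 12 passed the filter, 6 higher and 6 lower, and 2 had an unadjusted p below 0.05, both higher in MSC, where 6.49% of all probes did so. Cav1, which makes the caveolae where some of the pump resides, had a log2 difference of 0.62 (exact permutation p = 0.0317, limma FDR = 0.334). Wfs1, an endoplasmic reticulum protein that binds Atp1b1, had 0.29 (exact permutation p = 0.0317, limma FDR = 0.353). Sptan1, of the spectrin skeleton, and Hspa5, a chaperone of the reticulum, were among the brightest of the list and differed by -0.06 and 0.26 (exact permutation p = 0.587 and 0.0476, limma FDR = 0.867 and 0.434). For Hspa5 all 4 MSC arrays lay above all NP arrays, as for 3.12% of all probes. The margin was thin, with 16.423 in the highest NP array and 16.425 in the lowest MSC array. The Hspa5 difference was 0.41 within slide 1 and 0.07 within slide 2.

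Hormone and kinase genes that act on the pump gave 9 higher and 8 lower of 17 that passed, with a median of 0.02. Hsd11b2, which shields the mineralocorticoid receptor from glucocorticoids, had a log2 difference of 0.63 (exact permutation p = 0.0476, limma FDR = 0.335). Prkaca, a catalytic subunit of protein kinase A, had -0.19 (exact permutation p = 0.0317, limma FDR = 0.415). Sgk1, the aldosterone-induced kinase that raises pump activity, differed by 0.08 with an SE of 0.307 (limma FDR = 0.941), and Ppp1ca, a catalytic subunit of protein phosphatase 1, by 0.02 (limma FDR = 0.940).

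Markers of the segments that hold the pump lay beside these values as follows, where over all probes 48.8% were higher and 51.2% lower in MSC, and 6.49% were higher at an unadjusted p below 0.05. In the principal cell list, where Fxyd4 is known to be expressed, 8 of 8 genes were higher in MSC and 3 had an unadjusted p below 0.05, while Fxyd4 differed by -0.09. The summed level of that list was 18.49 to 18.77 in NP and 18.67 to 19.21 in MSC. In the intercalated cell list 5 of 5 genes were higher and 4 had an unadjusted p below 0.05, with summed levels of 13.97 to 14.98 in NP and 15.06 to 15.36 in MSC. The distal convoluted and connecting tubule list gave 5 of 5 that passed higher and 4 with an unadjusted p below 0.05, its summed level being 14.60 to 15.40 in NP and 15.39 to 15.67 in MSC, with Pvalb not well above background on any array. In the proximal tubule list 5 of 6 genes were higher and 1 had an unadjusted p below 0.05, with summed levels of 19.66 to 20.07 in NP and 19.97 to 20.22 in MSC. In the thick ascending limb list 3 of 6 genes were higher and 3 lower, and 1 of the higher had an unadjusted p below 0.05, with summed levels of 18.85 to 19.27 in NP and 18.98 to 19.55 in MSC. No gene of these lists was called with limma by FDR, and their part in the pump values was not tested.

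Of the cells outside the tubule, 3 of 3 red cell markers that passed were lower in MSC, with summed levels of 18.90 to 19.42 in NP and 16.51 to 19.39 in MSC. The fat list gave 3 of 3 higher (12.32 to 12.84 in NP, 12.46 to 14.94 in MSC), with Plin1 well above background on 1 array and Lep on 0. The stromal cell list, of transcripts that bone marrow MSC also express, gave 4 of 4 higher (14.22 to 15.51 in NP, 14.67 to 15.79 in MSC). For smooth muscle 4 of 4 were lower (12.51 to 13.90 in NP, 12.73 to 13.34 in MSC), for endothelium 2 higher and 3 lower, for leukocytes 3 higher and 1 lower, and for nerve 1 of 5 genes passed. Their part in the Fxyd1 and Fxyd5 values was not tested.

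**Figure D5:**
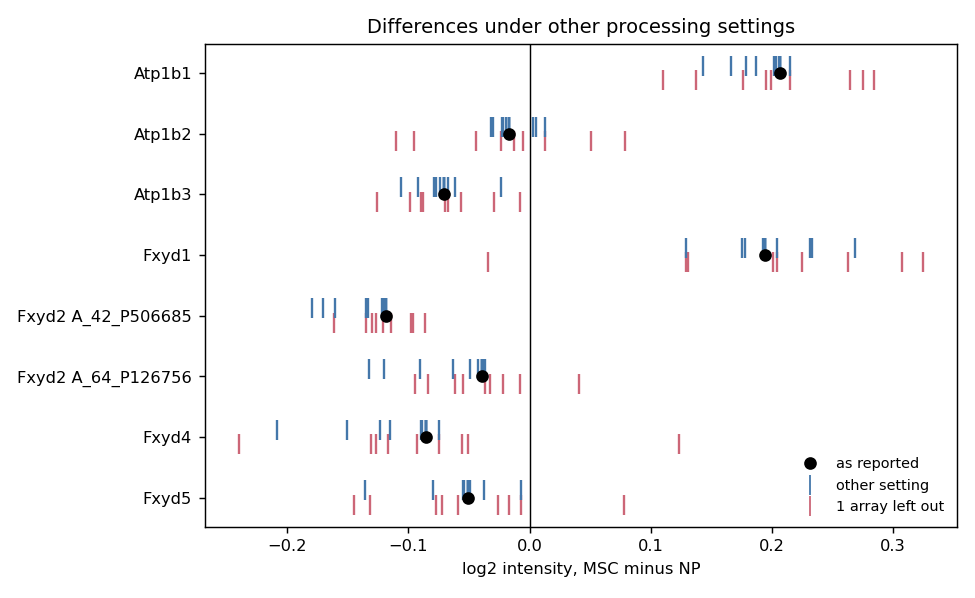
Log2 difference MSC minus NP (horizontal axis) of each member probe as reported (black), under other processing settings (blue) and with 1 array left out (red). Atp1b1, Atp1b3 and the first Fxyd2 probe stay on 1 side of 0 in each setting shown, whereas Fxyd4 and Fxyd5 cross 0 without MSC replicate 2 and Fxyd1 without MSC replicate 3.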

How the data were processed

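Total RNA of 9 kidneys was labelled with Cy3 and hybridized to 1-colour Agilent rat arrays. The authors extracted spot intensities with Agilent Feature Extraction (version 10.7.3.1 per the file headers) and deposited them with log2 values that they had normalized by cyclic loess and filtered with limma. Here the mean intensity of gene and negative control spots was log2 transformed, flagged spots were left out, and cyclic loess was run again; Pearson's r with the deposited log2 values was 0.99990 to 0.99997. Spots of a probe were averaged. Probes had to exceed 1.1 times the 95th percentile of the log2 negative controls on at least 4 arrays.

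Computation used limma 3.58.1 in R 4.3.3, with Benjamini-Hochberg adjustment over 15836 probes and without collapsing probes to genes. The steps were tested on simulated data. The brightest probe of a gene by its mean over 9 arrays was its reference. Groups came from the labels' treatment field, and nothing in the labels ties a sample to an animal. An array of a further MSC kidney was not analysed here, and 0 sample columns were left unused.

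The members, 3 pathway lists and 12 marker lists were chosen with earlier results of these data known. Named genes are all members, pathway genes with an unadjusted p below 0.05 and at most 4 of the brightest a list, the 3 genes most like each member, and markers given beside a result. Some genes of the list of other subunits are not reported here. Of 8 member accessions 7 were found in RefSeq (GRCr8), 0 under another symbol. The 4 shared replicate numbers were not taken as a pairing of the samples. Correlations of deviations were 0.197, 0.319, -0.352 and 0.0473, which cannot settle whether they pair. The alternatives were other intensity columns, scalings, filters, probe choices and blocks, array weights, a variance trend and leaving out each array.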

Additional observations from a re-analysis of the deposited data

Results flagged for a closer look

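In 3 of 28 groups of values 1 array lay far from the rest, where chance gives about 1 in 20 separate groups. The measure is the gap from that array to its nearest neighbour, as a share of the group's whole range. For Fxyd1 over Atp1b1 it was 0.727 for NP replicate 5, the lowest of the 5 at -8.41. For Fxyd4 over Atp1b1 it was 0.737 for NP replicate 2, the lowest of its group at -2.90. In the same quantity it was 0.841 for MSC replicate 2, the lowest of the 4 at -3.43. For the Fxyd4 intensity itself the measure was 0.127 for NP replicate 2 and 0.597 for MSC replicate 2. All 3 groups hold values over Atp1b1, which share the Atp1b1 intensities, so the 28 groups are not separate and an excess over chance cannot be read.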

How the results depend on the processing

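With 21 alternatives, 0 member probes and 0 pathway genes were called in each, although array weights called 2 of all probes. Array weights moved Fxyd4 to -0.21, Fxyd5 to -0.14, Fxyd2 probe A_64_P126756 to -0.13 and Atp1b3 to -0.02. The processed signal moved Fxyd4 to -0.15, Fxyd2 probe A_64_P126756 to -0.12 and Atp1b3 to -0.11. With 75th percentile scaling of the mean signal Fxyd2 probe A_42_P506685 was -0.18 and A_64_P126756 -0.09, and quantile normalization gave -0.06 for the latter. The slide block gave -0.08 for Fxyd5 and -0.03 for Atp1b2, which was also -0.03 with the deposited values. Atp1b1 and Atp1b3 kept their direction in all 21 and Fxyd2 probe A_42_P506685 in the 20 that test it (lowest FDR with limma 0.422, 0.733 and 0.313). With 1 array left out they ranged from 0.11 to 0.28, from -0.13 to -0.0077 and from -0.16 to -0.09. Atp1b2 turned to 0.0050 with the processed signal, 0.0030 with 75th percentile scaling and 0.0125 with the replicate block, which left out NP replicate 5 and called 0 member probes; the block also gave -0.0073 for Fxyd5 and 0.13 for Fxyd1. The replicate numbers were not taken as a pairing of the samples.

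With 1 array left out the difference ranged from -0.11 to 0.0789 for Atp1b2 (above 0 without NP replicate 2, 0.0511, without NP replicate 5, 0.0125, and without MSC replicate 2, 0.0789), from -0.0944 to 0.0412 for Fxyd2 probe A_64_P126756 (above 0 without NP replicate 4), from -0.24 to 0.12 for Fxyd4 and -0.14 to 0.0783 for Fxyd5 (both above 0 without MSC replicate 2), and from -0.0343 (without MSC replicate 3) to 0.33 for Fxyd1. Fxyd1 over Atp1b1, at -0.01, was 0.0903 with the processed signal, -0.33 within slide 1, 0.34 within slide 2 and -0.30 to 0.15 with 1 array left out, above 0 without NP replicate 2 (0.02), NP replicate 3 (0.0049), NP replicate 4 (0.0053), MSC replicate 2 (0.15) or MSC replicate 4 (0.11). Fxyd2 over Atp1b1 was -0.35 with the processed signal (exact permutation p = 0.0476) and -0.40 to -0.23 with 1 array left out (exact permutation p = 0.0536 to 0.143). The causes were not tested. With 5 and 4 arrays, changes inside the intervals given could not be told from 0.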
